A study of Mus musculus with 5 samples.

Results

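Long unsplit H3K36me3 islands are the autosomal regions of at least 40 kb that carried H3K36me3 in untreated mouse embryonic stem cells (ESCs) and met exactly 1 H3K36me3 region, covering at least 80% of them, in cells given L-proline (L-proline-induced cells, PiCs). An island is a broad enriched region called from a chromatin immunoprecipitation sequencing (ChIP-seq) library. Members were chosen by the width of the ESC islands and by their overlap with PiC islands, both measured in the H3K36me3 libraries. The rule found 588 members among 12280 ESC H3K36me3 islands, of which 11971 were autosomal and 1240 of those were at least 40 kb wide. Of these 1240 long islands, 639 met 2 or more PiC islands and are called split below, 11 met 1 PiC island that covered less than 80%, and 2 met none. Members thus made up 47.4% of the long islands (95% interval 44.6 to 50.2), and 59% of the 10731 autosomal islands under 40 kb were unsplit by the same limits.

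All libraries came from TBV2 ESCs of strain 129/SvP, grown without feeders on gelatin in medium with leukemia inhibitory factor and lacking non-essential amino acids. Control ESCs and PiCs were both kept for 5 days at low density, PiCs with L-proline at 500 µM. Each mark and condition had 1 library, so no test between conditions was made, and a difference between cultures cannot be told apart from a difference between treatments. Intervals are 95% intervals over islands and cover counting error only. The lists hold 26055650 H3K36me3 tags in ESC islands and 15787192 in PiC islands, and the depth of the whole libraries is unknown. Positions are on mouse build mm9. No gene annotation or sequence of that build was used here, so the regions are given without gene names or bases, and the label of the cells was not checked against marker genes.

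H3K36me3 is histone H3 trimethylated at lysine 36. In mammals the enzyme SETD2 writes it while travelling with elongating RNA polymerase II, so the mark covers the bodies of transcribed genes, grows towards their 3′ ends and is read by proteins such as the DNA methyltransferase DNMT3B. A long, unbroken island is the form the mark takes over a long transcribed gene or over transcribed neighbours lying close together. H3K9me3, trimethylated at lysine 9 by enzymes such as SETDB1 and SUV39H1, marks silenced chromatin and repeats, and some gene bodies, zinc finger genes among them, are known to carry both marks.

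The members covered 33.4 Mb. They were 4.91% of the autosomal ESC islands by number but held 14.7% of the length and 21.6% of the tags under H3K36me3. In PiCs the same ground lay under 584 islands that held 15.2% of the autosomal H3K36me3 length and 20.04% of the tags. Members ranged in width from 40 to 147.6 kb around a median of 51.6 kb (interval 50.6 to 53.0). The width of their PiC islands ran from 34.4 to 169.8 kb around a median of 53.0 kb (52.0 to 55.0).

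The widest member, chr1:63493601-63641200, spanned 147.6 kb in ESCs, and its PiC island began at the same base and was 138.8 kb wide. It held 189 ESC tags and 63.9 PiC tags per kb, which put it above the median of the members in ESCs and below it in PiCs. Next came chr10:6223801-6358800 with 135 kb, whose PiC island of 169.8 kb also took in 2 other ESC islands, and chr11:107410601-107544000 with 133.4 kb and a PiC island of 140.4 kb. The member chr1:183825001-183948400 measured 123.4 kb in both conditions, shifted by a single window of 200 bp. The other widest members showed how closely a region of over 110 kb could keep its extent. The 2 of chromosome 4, chr4:32745601-32867600 and chr4:130220201-130341600, went from 122 to 123.8 kb and from 121.4 to 123.0 kb. Those at chr1:84716801-84834800 and chr15:37892401-38007200 went from 118 to 116.4 kb and from 114.8 to 113.4 kb. On chromosome 7, chr7:80570601-80682000 went from 111.4 to 111.2 kb. Only chr2:165849001-165960800 of these 10 differed at both ends by more than 5 kb, losing 7 kb at its lower edge while its PiC island of 123.8 kb ran on over a second ESC island.

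**Figure D1:**
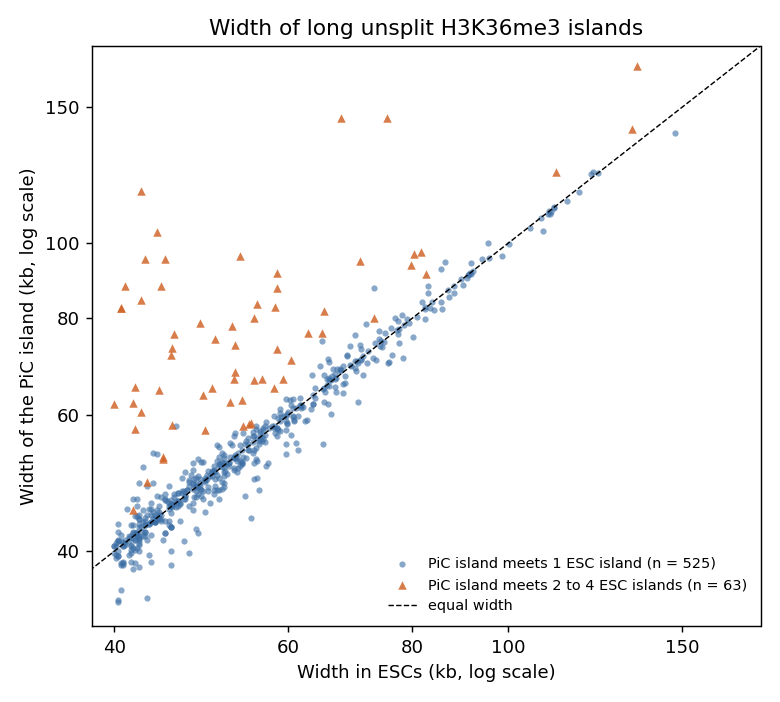
Width of each of the 588 members in ESCs (x axis, kb, log scale) against the width of its PiC island (y axis, kb, log scale); circles are members whose PiC island met no other ESC island and triangles those whose PiC island met 2 to 4 ESC islands. The circles follow the dashed line of equal width, between 0.804 and 1.26 times the ESC width, and nearly all points far above the line are triangles.

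Because the rule asked for 1 PiC island covering at least 80%, the agreement in extent is a description of what was chosen. Within that limit, the PiC island covered 99.5% of the median member (interval 99.2 to 99.6), and 507 members were covered over at least 95% of their length. It covered the whole ESC island in 237 cases (40.3%), where the share over all 8669 autosomal ESC islands meeting exactly 1 PiC island was 40%. Those 8669 include islands covered less than 80%, so they and the members differ in cover limit. Unsplit islands under 40 kb, chosen with the same cover limit, had a median cover of 100% (interval 99.5 to 100), above that of members. The PiC island was wider than the member in 291 cases (49.5%, against 50.5% of those 8669), narrower in 253 and of equal width in 44. The median ratio of PiC to ESC width was 1, and over unsplit islands under 40 kb it was 1.04 (1.04 to 1.05). Among the 525 members whose PiC island met no other ESC island, 5% had a ratio under 0.910 and 5% a ratio over 1.07. The remaining 63 had PiC islands that joined the member to 1, 2 or 3 other ESC islands (50, 11 and 2 members), with a median ratio of 1.29.

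Each edge on its own lay within 1 kb of its ESC position in most members, and both edges did in fewer. Calls lie on a grid of 200 bp windows, and at the lower-coordinate edge 124 members began at the same base in both lists, while at the other edge 118 ended at the same base. The lower edge lay within 1 kb in 404 members (68.7%), the higher edge in 371 (63.1%), and both in 250 (42.5%). Over the 8669 autosomal ESC islands meeting exactly 1 PiC island these shares were 62.4%, 61.7% and 40%. Identical first and last bases were found for 27 members (4.59%, against 3.24% of the 8669 islands with 1 PiC island). The widest of these was chr2:154263801-154373800 with 110 kb, followed by chr10:62708201-62800400 (92.2 kb), chr4:123100801-123192400 (91.6 kb), chr5:66000801-66087800 (87 kb) and chr5:122873401-122951000 (77.6 kb). Per kb the first of them held 108 ESC tags and 70.5 PiC tags, and the last held 274 and 140, unscaled between the lists.

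**Figure D2:**
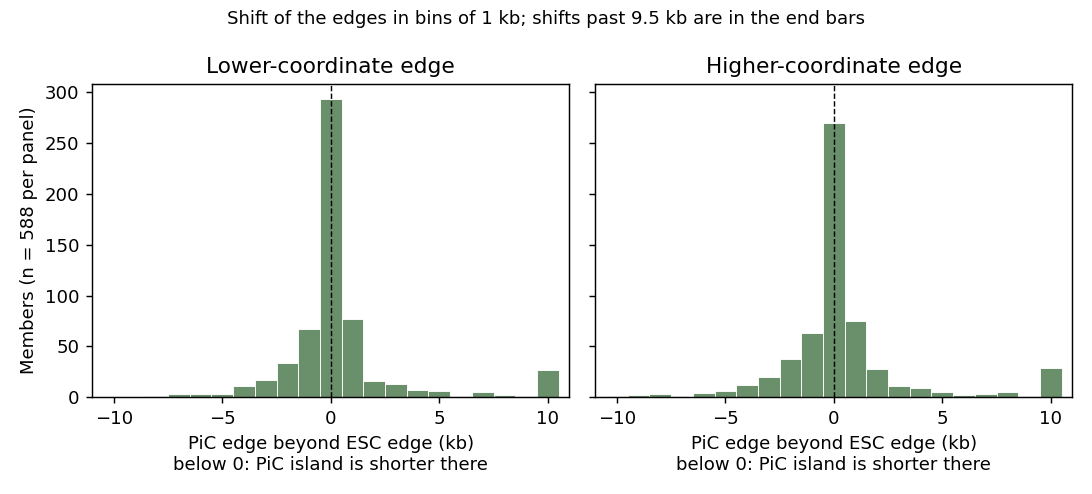
Distance in kb by which the PiC island ran beyond the ESC edge, at the lower-coordinate edge (left) and the higher-coordinate edge (right), as the number of members in bins of 1 kb; values below 0 mean that the PiC island stopped short, and shifts past 9.5 kb are gathered in the end bars. Both panels peak at 0, and the bar at the right end of each holds the members whose PiC island ran on, among them 25 at the lower and 28 at the higher edge that passed 10 kb.

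Large shifts were extensions, and they went with joined islands. An extension of more than 10 kb was found at an edge of 52 members, and in 48 of these the PiC island also met another ESC island. The nearest other ESC island lay a median of 6.5 kb from a member, so such an extension will often meet one. These counts, and that of the 63 joined members, were not made over other islands. Relative widening was not particular to members: 5% of them had a width ratio over 1.36. For unsplit islands under 40 kb that limit was 3.42, and over the 8669 islands with 1 PiC island 2.97. The largest retreat was 7.6 kb at a lower edge and 10 kb at a higher one, which the 80% limit restricts. The PiC island that ran farthest beyond a member covered both chr15:58843401-58911200 (67.8 kb) and its neighbour chr15:58766601-58842000 (75.4 kb), which lay 1.4 kb apart in ESCs, in 1 island of 145.4 kb. A member on chromosome 8, chr8:34953001-34995600 (42.6 kb), lay in a PiC island of 117 kb. On chromosome 5, chr5:134851401-134895600 (44.2 kb) was joined with 3 other ESC islands into 103.6 kb. The member chr2:121045601-121088600 (43 kb) and its neighbour chr2:120999001-121044000 (45 kb) shared a PiC island of 95.4 kb. In all, 8 members shared 4 PiC islands in pairs.

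Islands on both sides of the limits were as follows. Exactly 40 kb was the width of 4 members, such as chr4:122695001-122735000, chr5:139895401-139935400 and chr7:29179001-29219000, and 11 unsplit islands measured 39.8 kb, such as chr1:59742201-59782000, chr1:93392001-93431800 and chr1:174014401-174054200. The least covered members were chr9:64882601-64937600 (80.4%), chr7:13865401-13908600 (80.6%) and chr18:35372601-35420200 (83.6%). Just below the limit lay chr1:59680401-59726200 (75.5%), chr6:86637201-86679400 (74.4%) and chr18:32228801-32272800 (69.5%). The count depended on gaps in the calls: with H3K36me3 islands of each list joined over gaps of up to 2 kb, 1003 islands, or 64.0% of the long ones, met the rule.

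Members were dense in H3K36me3 tags. Tags come from the libraries that the rule used and are not scaled between conditions, so these values describe and rank islands within a list. The median member held 146 tags per kb in ESCs (interval 141 to 153), 2.04 times the median of the whole ESC list, and the range was 51.5 to 542. For long split islands the median was 92.4 tags per kb (89.3 to 95.6), or 1.29 times the list median. The PiC islands of the members held a median of 84.2 tags per kb (81.3 to 87.1), or 1.72 times the PiC list median, with a range of 37.4 to 203. Above the ESC list median of 71.3 lay 565 of the 588 members, and above the PiC list median of 48.9 lay 578 of their PiC islands.

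The denser a long ESC island was, the more often it was unsplit. The long islands were ranked by ESC tags per kb and cut into 10 classes of 124. In the class with the fewest (42.0 to 66.3), 16 of 124 were members, or 12.9% (interval 7.56 to 20.1). In the class from 115 to 129 tags per kb, 62 of 124 were members. In the class with the most (222 to 542), 114 of 124 were members, or 91.9% (85.7 to 96.1). Width went the other way: members made up 52.5% of the long islands of 40 to 60 kb (49.0 to 56.1), 43.0% of those of 60 to 80 kb (37.1 to 49.0) and 31.2% of those of 80 kb or more (24.4 to 38.7). In each of these classes members were denser than split islands, with medians of 144 against 85.6, 147 against 93.7 and 172 against 105 ESC tags per kb. The part that the smaller number of PiC tags has in where PiC islands break was not tested.

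**Figure D3:**
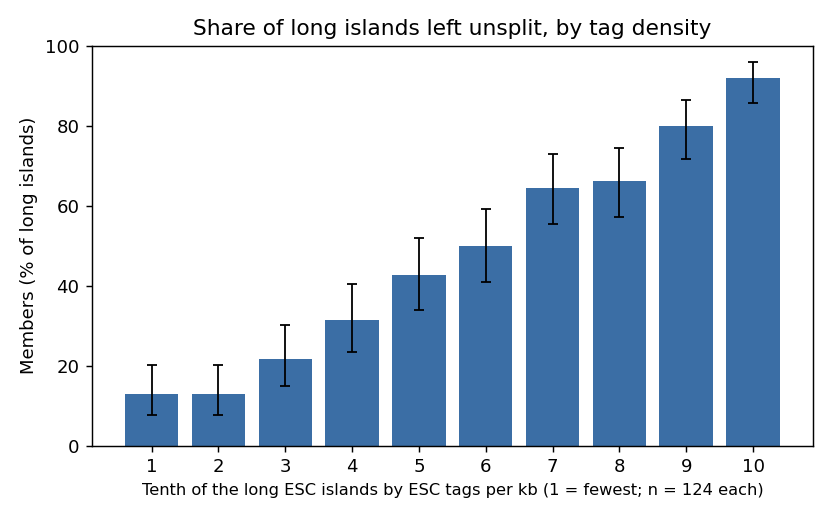
Share of the 1240 long autosomal ESC islands that were members (y axis, percent), in 10 classes of 124 islands ranked by ESC tags per kb (x axis, 1 is the sparsest); bars are shares and lines their exact 95% binomial intervals. The share was 12.9% in both of the sparsest classes and 91.9% in the densest.

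The order of the members by tag density was largely common to both conditions. Across the 588 members, Spearman's rho between ESC and PiC tags per kb was 0.82 and Pearson's r of the log2 values 0.81, as a description of islands that share 2 libraries. Without chromosome 1 rho was 0.80. The PiC density was a median of 0.563 times the ESC density (interval 0.552 to 0.576). The median of the same ratio was 0.700 (0.696 to 0.705) over the 8669 autosomal islands with 1 PiC island and 0.690 (0.683 to 0.696) over unsplit islands under 40 kb, and the tags of the 2 whole lists stood at a ratio of 0.606. The 147 members that were sparsest in ESCs had a median ratio of 0.706 (95.6 ESC and 64.2 PiC tags per kb), and the 147 densest ones 0.483 (253 and 121), so the range of densities was narrower in PiCs. Since these classes were cut on the ESC values, part of this slope follows from the choice.

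More tags per kb in PiCs than in ESCs, in spite of the smaller PiC total, were found in 13 members (2.21%), and in 13.9% of the 8669 islands with 1 PiC island. They were looked at after their values were seen. PiC density was taken over the whole PiC island, which for some of the 13 also covered another ESC island. Such members are compared over unlike ground. At chr15:58843401-58911200, chr2:90782601-90823200 and chr17:84107801-84148800 it held a second member, with 102, 128 and 94.1 ESC tags per kb. The shared PiC islands held 77.6, 66.8 and 76.3. Chromosome 15 held 4 of the 13. The first, chr15:99607201-99687600, had 66.0 ESC and 94.4 PiC tags per kb, followed by chr19:3583801-3660000 with 59.5 and 84.5. The others of chromosome 15 were chr15:93230401-93298200 (57.8 and 77.4), chr15:99002001-99046400 (75.02 and 92.1) and the joined island at 58843401 (72.3 and 77.6). The 5 sparsest members in ESCs held 51.5 to 57.6 tags per kb, at chr1:120288801-120353800, chr5:139895401-139935400, chr9:102763801-102815600, chr11:106362401-106413200 and chr2:92159801-92209600. Their PiC islands held 44.4 to 51.7, so that they too stayed in 1 piece at densities near the PiC list median.

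Members of chromosome 1 stood above those of the other autosomes. Their median was 201 ESC tags per kb, whereas the medians of the other 18 chromosomes ran from 125 on chromosome 5 to 180 on chromosome 13. In PiCs chromosome 1 again had the highest median, 108 against 76.5 to 90.9. Of the 60 members on chromosome 1, 14 (23.3%) exceeded 300 ESC tags per kb, as did 13 of the 528 others (2.46%). Long split islands of chromosome 1 did not stand apart in this way, with a median of 95.6 tags per kb inside the range of the other chromosomes, 81.6 to 103. Since the densest long islands were mostly members, the split class holds few of them, and its median can hardly show such a difference. Over all ESC islands of chromosome 1 the median was 77.3 tags per kb. Chromosomes 8, 11 and 19 had higher ones, 77.5, 79.6 and 78.7.

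Of the 10 members with the most ESC tags per kb, 9 lay on chromosome 1. The first was chr1:71604601-71698800, a region of 94.2 kb with 542 ESC and 203 PiC tags per kb, the highest density of a member in both lists. It was followed by chr1:155290601-155334000 with 502 and 183, and chr1:89573401-89624800 with 437 and 134. A cluster of dense members lay near the end of the chromosome. It included chr1:182500001-182542000 (381 ESC and 174 PiC tags per kb), chr1:183020801-183073200 (352 and 154) and chr1:181672401-181732000 (333 and 134). The others on this chromosome were chr1:89653801-89695800 (362 and 138), chr1:135508001-135557200 (358 and 158) and chr1:152242001-152301800 (335 and 110). The single one elsewhere was chr11:79808801-79851400 (333 and 120). Ranked by PiC tags instead, 3 of the first 10 lay on chromosome 1, and 3 regions were among the first 10 in both conditions. Among the first 50, chromosome 1 held 17 by ESC and 13 by PiC tags. Copies of this chromosome in the cells and PCR duplicates in the libraries were not measured here.

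**Figure D4:**
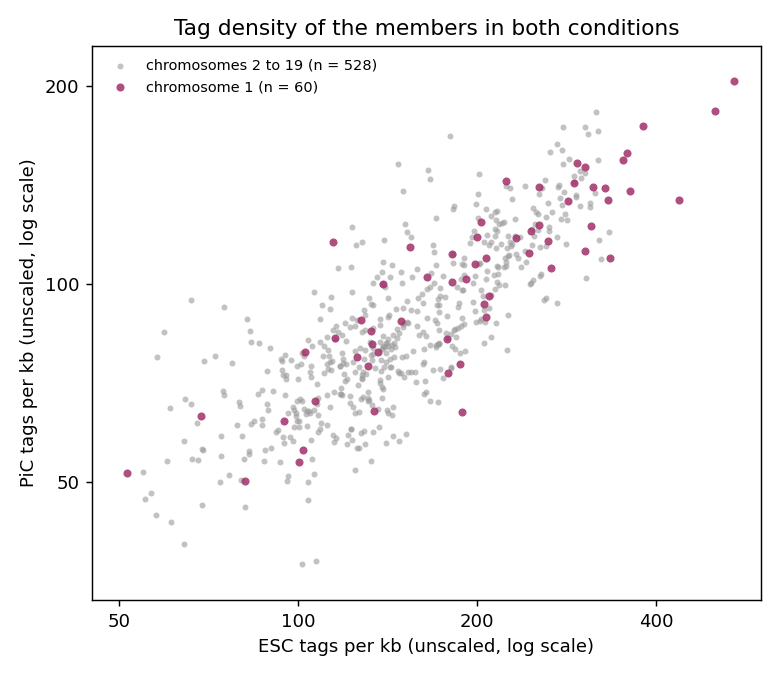
ESC tags per kb (x axis, log scale) against PiC tags per kb (y axis, log scale) of the 588 members, unscaled; the 60 members of chromosome 1 are coloured and the 528 others grey. Members that are dense in one condition are dense in the other, and all the points beyond 400 ESC tags per kb belong to chromosome 1.

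Every autosome held members, from 12 on chromosome 3 to 63 on chromosome 2. As a share of the long islands they ranged from 30.2% on chromosome 14 (16 of 53, interval 18.3 to 44.3) to 63.5% on chromosome 15 (33 of 52, 49.0 to 76.4). The interval of chromosome 14 ended below the 47.4% of all long islands, that of chromosome 15 began above it, and those of the other 17 autosomes took it in. Chromosomes 15 and 17 had the highest median ratios of PiC to ESC tags per kb over members, 0.665 and 0.681, and chromosome 3 the lowest, 0.495. The widest member of a chromosome measured at least 59.8 kb (chr3:51221801-51281600) everywhere. On the chromosomes not named above the widest ones were chr5:145530401-145621800, chr6:120315001-120397400, chr8:83283601-83382200, chr9:110035401-110145200, chr12:102148201-102223200, chr13:55314601-55422600, chr14:20571801-20641800, chr16:18878801-18974600, chr17:32328201-32420000 and chr18:65741401-65851600. In each of these 10 regions and in that of chromosome 3, the PiC island differed from the ESC width by at most 2.4 kb.

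The distance to the nearest other H3K36me3 island was taken for members and long split islands, and not for all islands. The nearest other ESC H3K36me3 island was a median of 6.5 kb away (interval 5.4 to 8.4), and for 336 members (57.1%) it was within 10 kb. Long split islands lay nearer to theirs, at a median of 4.2 kb (3.4 to 5.2), and for 425 of 639 (66.5%) it was within 10 kb. In windows of 5 Mb, 269 of 505 held at least 1 member, and the 23 windows with 5 or more held 137 members (23.3%). The fullest windows had 7 members each, such as the one from 25000001 to 30000000 on chromosome 17, where there were 9 long islands in all. From 180000001 to 185000000 on chromosome 1, all 6 long islands were members.

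The H3K9me3 lists were not used by the rule. H3K9me3 islands were fewer inside members in PiCs than in ESCs, while over the autosomes they were more numerous in PiCs. An H3K9me3 island touched 92 members in ESCs, or 15.6% (interval 12.8 to 18.8), and 50 members in PiCs, or 8.50% (6.38 to 11.1). The shares over all 11971 autosomal ESC H3K36me3 islands were 10.4% in ESCs and 6.94% in PiCs, and over the 1240 long ones 14.6% and 9.03%. In ESCs 122 H3K9me3 islands lay in members, and in PiCs 54 did, which gives a ratio of 0.443 (0.315 to 0.615). The ratio over the autosomes was 1.38 (1.35 to 1.41), from 17697 and 24422 islands. Over all autosomal ESC H3K36me3 islands, members included, it was 0.639 (0.588 to 0.695), from 1428 and 913, so a ratio below 1 was common to H3K36me3 islands in general. The ratio in members was 0.321 times that of the autosomes (0.233 to 0.442). The H3K9me3 lists differ in tags, 1511058 in ESC and 3514489 in PiC islands. With a PiC list cut to the size of the ESC list the ratio in members was 0.336 (0.230 to 0.482). Such a cut can only lower the PiC number, so it does not test the part of sparse ESC calls. With members of at least 60 kb alone the ratio was 0.621 with an interval that includes 1 (0.325 to 1.16).

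Long split islands and short unsplit islands could not be told apart from members in this ratio at these numbers. For split islands the numbers were 110 and 72, with a ratio of 0.655 (0.479 to 0.889), and the ratio of members was 0.676 times theirs (0.437 to 1.05). Unsplit islands under 40 kb held 864 and 458, a ratio of 0.530 (0.472 to 0.594), and that of members was 0.835 times theirs (0.594 to 1.17). Flanks as long as the member on each side, without the members themselves, had a higher ratio than the members. In them 510 were found in ESCs against 447 for PiCs, with a ratio of 0.876 (0.770 to 0.997), and the ratio in members was 0.505 times theirs (0.358 to 0.713). These flanks include other ESC H3K36me3 islands. In the parts of the flanks outside those islands the numbers were 452 and 421. Their ratio was 0.931, with an interval that includes 1 (0.814 to 1.07). Per Mb, members held 3.65 H3K9me3 islands in ESCs (3.03 to 4.36) and 1.62 in PiCs (1.21 to 2.11), and their flanks 8.24 (7.54 to 8.99) and 7.22 (6.57 to 7.92).

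**Figure D5:**
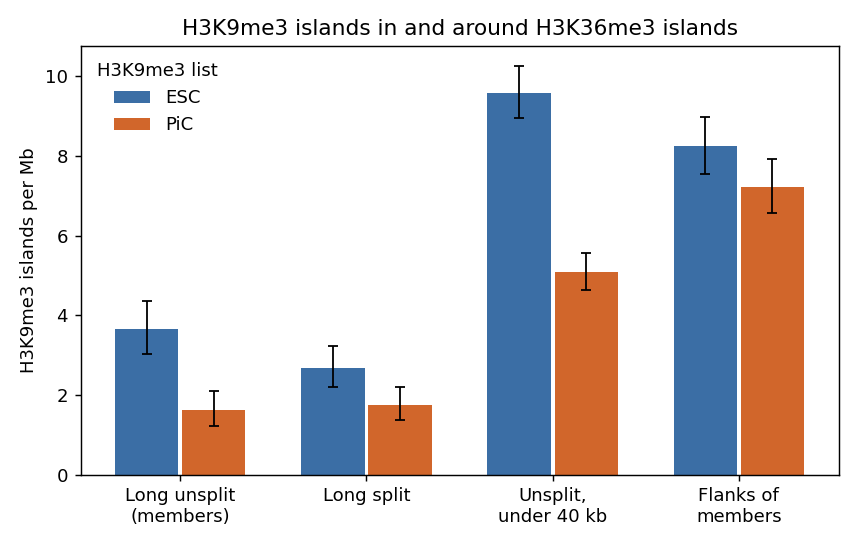
H3K9me3 islands per Mb (y axis) in ESCs and PiCs, inside members, long split islands and unsplit islands under 40 kb, and in flanks of the members' own length on both sides; lines are exact 95% Poisson intervals. Inside members the values were 3.65 in ESCs and 1.62 in PiCs, and in the flanks 8.24 and 7.22; contacts per Mb also depend on the width of the regions, so the unsplit islands under 40 kb are not comparable in level.

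The share of islands touched in ESCs was 1.72 percentage points higher in members than in split islands (interval -2.25 to 5.73), and in PiCs the difference was -1.04 points (-4.26 to 2.21), so neither was told apart from 0. Split islands were wider, and per Mb they held 2.67 H3K9me3 islands in ESCs (2.20 to 3.22), fewer than the 3.65 of members (3.03 to 4.36). In PiCs the values were 1.75 and 1.62. By width, members held 4.64 per Mb in ESCs against 2.74 at 40 to 60 kb. At 60 to 80 kb it was 1.48 against 2.72, and at 80 kb or more 3.23 against 2.54. Within classes of width the intervals of the shares touched in ESCs overlapped between members and split islands. Overlap of separate intervals does not show that shares are equal, and no interval of the difference was made within classes. Of members of 40 to 60 kb 16.9% were touched (13.4 to 20.8) against 11.54% of split islands (8.44 to 15.3), and at 60 to 80 kb it was 10.1% (5.32 to 17.0) against 15.3% (10.0 to 21.9). At 80 kb or more it was 18.5% (9.25 to 31.4) against 19.5% (12.8 to 27.8). Classes of ESC tags per kb, set after seeing the data, gave 20.2% of members (12.4 to 30.1) and 11.7% of split islands (8.56 to 15.4) below 100. From 100 to 150 the shares were 17.0% in both, and above that 13.2% (9.44 to 17.7) and 17.2% (8.90 to 28.7).

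Members with H3K9me3 in ESCs alone outnumbered those with H3K9me3 in PiCs alone. An H3K9me3 island was found in ESCs alone in 59 members (10.0%, against 5.72% of all autosomal and 8.47% of long islands) and in PiCs alone in 17 (2.89%, against 2.25% and 2.9%). In both conditions it was found in 33 (5.61%, against 4.69% and 6.13%), and 479 members had none in either. H3K9me3 islands inside members were more numerous in ESCs on 15 of the 19 autosomes, with 11 against 2 on chromosome 15 and 8 against 0 on chromosome 8. Chromosomes 9 and 18 had 1 in ESCs and 2 in PiCs. The share was lower in PiCs for sparse and for dense members: of the 147 members with the fewest ESC H3K36me3 tags per kb 21.1% were touched in ESCs and 12.2% in PiCs, and of the 147 densest 11.6% and 6.80%.

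The H3K9me3 islands that members held in ESCs were less often matched in PiCs than those of the flanks. Of the 122 ESC islands, 39 (31.97%, interval 23.8 to 41.0) overlapped a PiC H3K9me3 island, against 56.5% in the flanks (52.0 to 60.8) and 78.9% over the autosomes (78.3 to 79.5). The share was 44.5% in long split islands (35.1 to 54.3) and 39.9% in unsplit islands under 40 kb (36.6 to 43.3), with intervals that overlap that of members, and 44.7% over all autosomal H3K36me3 islands (42.1 to 47.3). Such overlap does not show that the shares are equal, and no interval of these differences was made. The median density was 34.2 tags per kb for the 39 matched ones and 14.3 for the 83 others. Unmatched ESC H3K9me3 islands were sparse elsewhere too, with medians of 17.3 over the autosomes, 16 in the flanks, 17.4 in long split islands and 14.4 in unsplit islands under 40 kb. An ESC counterpart was found for 35 of the 54 in PiCs (64.8%, 50.6 to 77.3), close to the 60.9% in the flanks (56.2 to 65.4). Most lay wholly inside a member, 104 in ESCs and 43 in PiCs. Their overlap was centred within 5 kb of an edge in 28.7% of cases in ESCs and 44.4% in PiCs, a strip that makes up 17.6% of the members' length. These shares count islands that cross an edge, whose overlap lies near it by position, so they do not measure a preference for edges.

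Few members had much of their length under H3K9me3. Counts by share of length covered were made for members only. Long split islands and unsplit islands under 40 kb also held fewer H3K9me3 islands in PiCs than in ESCs. A fall from ESCs to PiCs was therefore not particular to members. At least 10% of the length was covered in 27 members in ESCs and 11 in PiCs. First in both conditions was chr17:6938401-6980200, with 44.98% in ESCs, from 1 island of 22.8 kb with 83.2 H3K9me3 tags per kb, and 37.3% in PiCs, from 1 of 15.6 kb with 42.9. Its H3K36me3 density was 183 ESC and 131 PiC tags per kb, above the median of the members in both. The next in ESCs had little or no such cover in PiCs. At chr11:117850201-117895800, 4 H3K9me3 islands covered 34.6% in ESCs and 1 covered 3.51% in PiCs. At chr8:123064001-123111600, 4 islands with 10.2 to 14.3 tags per kb covered 33.2% in ESCs, and none was called in PiCs. The same held for chr1:136190401-136232800 (26.4%, 3 islands) and chr8:125000801-125046600 (22.7%, 2 islands). The H3K9me3 islands of these 4 regions in ESCs held 10.2 to 28.1 tags per kb, and all but 1 of them were below the median of 25.6 over all autosomal ESC H3K9me3 islands.

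Other members had as much H3K9me3 in PiCs as in ESCs, or more. At chr17:85358801-85414600 the share was 20.1% in ESCs and 31.5% in PiCs, where an island of 12 kb with 46.3 tags per kb lay beside one of 5.6 kb. At chr16:22010801-22052600 it was 13.4% and 16.3%, and at chr7:13865401-13908600 it was 9.26% and 12.96%. The member chr17:80979401-81022400 had none in ESCs and 14.9% in PiCs, from 1 island of 6.4 kb with 34.5 tags per kb. Of the 5 members with the largest share under H3K9me3 in PiCs, 3 lay on chromosome 17. The input library was not analysed here, so sites that gather tags without antibody were not set apart.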

How the data were processed

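ChIP-seq islands of 2 marks in ESCs and PiCs, 1 library each, were analysed, and samples were grouped by title. Per the labels' protocols, sonicated chromatin was immunoprecipitated and SOLiD fragment libraries were amplified by PCR and sequenced. Per the submitters' processing notes, islands were called with SICER on mm9; its version and settings, the aligner, duplicate removal and the use of the input are not given in the sources at hand. The deposited whole number per island was read as its tag count, not scaled to library size. Starts and ends lay on a grid of 200 bp, ends being the last base counted from 0; positions are given 1-based. The smallest gap within an H3K36me3 list was 1200 bp.

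The gene and promoter tables at hand were of GRCm38.p6 (last gene of chromosome 1 ending at 195291439, where an island reached 197195400), so no gene, pathway list or sequence was used. Contact means at least 1 bp of overlap. Shares carry exact Clopper-Pearson intervals, medians exact order-statistic intervals, island numbers exact Poisson intervals, ratios of numbers the exact interval of the PiC share, differences of shares Newcombe intervals and ratios of ratios normal intervals on the log scale (Python 3.11.15, numpy 2.4.6, pandas 2.3.3, scipy 1.17.1, statsmodels 0.14.6, matplotlib 3.10.9). Islands are not replicates. The overlap functions, tested on simulated lists, found 300 of 300 planted unsplit islands and called 0 others.

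Members and lists were chosen with earlier results of these data known. Named regions are the 10 widest members, the 10 with the most and 5 with the fewest ESC tags per kb, the 5 widest with identical edges, the 5 passed farthest by their PiC island, the 5 most under H3K9me3 in each condition, the widest of each autosome, and 3 on each side of each limit. Alternatives were other limits of width and cover, islands joined over 2 kb, a minimum contact of 1 kb, cover of both islands, the PiC H3K36me3 islands with the most tags per kb, shorter H3K9me3 lists, and lists without chromosome 15. Those without chromosome 1 and within 100 to 150 ESC tags per kb were chosen after seeing the data.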

Additional observations from a re-analysis of the deposited data

How the results depend on the processing

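No paired analysis was possible because every mark and condition had a single library, and no setting could leave out a replicate. Of 109 alternative values over 9 results, 89 stayed within the interval of the main value (for the number of members, within 1.5 times) and 20 did not; the ratio of H3K9me3 island numbers stayed below 1 in all its alternatives. With limits of 30 and 60 kb, 1141 and 173 islands were members, or 52.6% and 38.4% of the long islands. With H3K36me3 islands joined over 2 kb there were 1003 members (64.0%), of which 18.9% touched ESC and 11.2% PiC H3K9me3, and 14.2% of split islands touched PiC H3K9me3. With the cover limit asked of both islands, 44.1% of the long islands were members. At 60 kb the H3K9me3 ratio was 0.621, with an interval from 0.325 to 1.16 that includes 1, and 12.7% of members and 17.1% of split islands touched ESC H3K9me3. With the 50% of each H3K9me3 list that held the most tags, 8.33% of members touched ESC and 4.76% PiC islands, and for split islands 6.89% and 5.48%. With a PiC H3K9me3 list of the size of the ESC list, 6.29% of members and 6.73% of split islands touched it. In the class of 100 to 150 ESC tags per kb, added later, 17.0% of split islands touched ESC H3K9me3. Apart from the smaller lists, which hold fewer islands by construction, the cause was not tested.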

Other observations

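Read from the other side, long PiC islands more often had a single counterpart. Of 926 autosomal PiC H3K36me3 islands of 40 kb or more, 742 met exactly 1 ESC island that covered at least 80% of them (80.1%, interval 77.4 to 82.7), and 157 met 2 or more. The PiC list holds more and narrower islands than the ESC list, 16804 against 12280, with median widths of 8.6 and 12.8 kb. Long islands are thus drawn from unlike lists, and the part this has in the difference was not tested. The PiC islands of 499 members met this reversed rule as well, and those of 564 members were at least 40 kb wide.

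The 11 long ESC islands that met 1 PiC island under the cover limit fell into 2 kinds, described after their values were seen. In 6 of them the PiC island covered 4.51% to 13.5% and was 2.6 to 5.8 kb wide, as at chr2:76538601-76620400, where 81.8 kb in ESCs met 5.2 kb in PiCs. In the other 5 it covered 55.5% to 75.5%. None of the 11 touched an H3K9me3 island in ESCs, and 1, chr16:48433801-48485400, touched one in PiCs. Over the 1240 long islands the shares touched were 14.6% and 9.03%, and 11 islands are too few to be told apart from these.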
